A study of Mus musculus with 4 samples.

Results

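Solute carriers are the membrane proteins that move amino acids, sugars, ions, metals, nucleosides and metabolites across the plasma membrane and the membranes of organelles. The genes described here are those with a solute carrier symbol (Slc followed by a family number) that had at least 50 unique molecular identifiers (UMIs, each marking 1 captured RNA molecule) summed over 4 single-cell count tables. Slc2a1, Slc2a5, Slc40a1, Slc11a1, Slc11a2 and Slc31a1 were left out. Of 256 genes with such a symbol among 16342 genes in any table, 167 met this rule. The members were therefore selected on their measured UMI total, which is no finding. Just above the limit stood Slc1a4 with 51 UMIs, Slc25a35 with 53, Slc24a2 and Slc37a1 with 54 each, and Slc5a6 with 64. Just below it stood Slc43a3 with 48, Slc23a1 with 46, Slc25a15 with 45, and Slc24a1 and Slc19a2 with 44 each. Slc7a11, the cystine and glutamate exchanger much studied in activated microglia, had only 30 UMIs (4 and 7 at week 0, 11 and 8 at week 5) and is not a member.

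The cells were taken from the corpus callosum, the main white matter tract between the hemispheres, of male C57BL/6 mice aged 13 weeks, and were sorted as live nucleated cells carrying CD11b, a surface integrin of myeloid cells. The labels give them as microglia and macrophages. There were 2 libraries of untreated mice (week 0) and 2 at week 5 of mice treated with cuprizone, which binds copper and, in the diet, strips the tract of its oligodendrocytes and myelin. Nothing in the labels ties the libraries to separate animals, so the tests measure the spread between these libraries, which may be technical.

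Amino acid carriers of the plasma membrane work largely as exchangers, in which a light chain is held at the surface by the heavy chain Slc3a2, while carriers in the lysosome return the products of digestion to the cytosol. Most of the Slc25 family sits in the inner membrane of mitochondria and exchanges ADP for ATP or carries phosphate, iron and metabolites. The class called mitochondrial below was set by this family number alone. Zinc is moved into the cytosol by the Slc39 family and out of it by the Slc30 family. Microglia, which take up and digest myelin debris, are rich in lysosomal carriers.

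After removal of cells with under 500 genes or over 10% mitochondrial UMIs and of 24 marked doublets, 3704 of 4000 barcodes were used, 909 to 956 per library. The libraries differed in depth, from 2350675 UMIs in week 0 replicate 1 to 6429261 in week 5 replicate 1. Libraries shared at most 2 cell barcodes. Microglia markers summed to 29514 to 49781 CPM (UMIs scaled to a common library total), none of 14 at 0, and were lower in both week 5 libraries. Markers of other cells differed as well: 10 markers of border-associated macrophages (the macrophages of the meninges and vessels) summed to 388 and 28.9 CPM at week 0 and to 408 and 244 at week 5, with 2 of them at 0 in week 0 replicate 2. The 6 markers of the choroid plexus summed to 856 and 4.64 CPM against 1998 and 2145, with 2 or 3 at 0 in each library. T or NK cell markers summed to 0.851 and 14.1 against 38.9 and 280 CPM, monocyte markers to 63.4 and 20.1 against 160 and 75.8, and oligodendrocyte markers to 122 and 122 against 203 and 146. Neutrophil markers summed to 287 CPM in week 0 replicate 2 and were at 0 in the other libraries. The part of these cells, and of depth, in the results below was not tested. The comparison was also run without the 3 clusters named from markers, those of border-associated macrophages, choroid plexus and oligodendrocytes. Cluster 2, led by the neutrophil markers S100a9, S100a8 and Retnlg, was not named and was kept in that fit. It held 173 and 547 cells at week 0 and 18 and 22 at week 5. Its microglia markers summed to 51523 CPM and its neutrophil markers to 372 CPM.

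The members together held 0.842% (replicate 1) and 0.790% (replicate 2) of the UMIs at week 0 against 0.637% (replicate 1) and 0.754% (replicate 2) at week 5. Both week 5 libraries lay below both week 0 libraries, and week 5 replicate 1 was the lowest. The levels of single members below are instead CPM of a library size corrected by edgeR's TMM factors, which allow for a few abundant genes taking up a larger share of 1 library. Where 2 pairs of values are joined by "against", week 0 comes first and replicate 1 comes first in each pair.

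No member passed the test between week 5 and week 0, and solute carriers outside the membership rule are not covered here. The counts of all filtered cells were summed per library and compared with edgeR's quasi-likelihood test, and 0 of the 167 members had an adjusted p under 0.05 (Benjamini-Hochberg), where 2.53% of the 11250 genes tested did. All 167 members passed the filter on low counts. At an unadjusted p under 0.05 there were 14 members (8.38%), 7 of them higher and 7 lower at week 5, against 13.7% of all genes. DESeq2 called 1 member, Slc25a3, among 392 genes, and limma-voom 0 members among 227 genes. Both week 5 libraries lay above both week 0 libraries for 30 members (18%, against 21.1% of all genes) and below them for 45 (26.9%, against 22.2%). For the other 92 the groups overlapped. The members' median log2 fold change was -0.05, beside -0.01 over all genes. The 95% confidence interval of the change stayed within 2-fold in both directions for 105 members (62.9%), a share close to the 59.97% of all genes. For the other members the interval reached past 2-fold in at least one direction. The plot of log2 fold changes by class shows all of them.

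**Figure D1:**
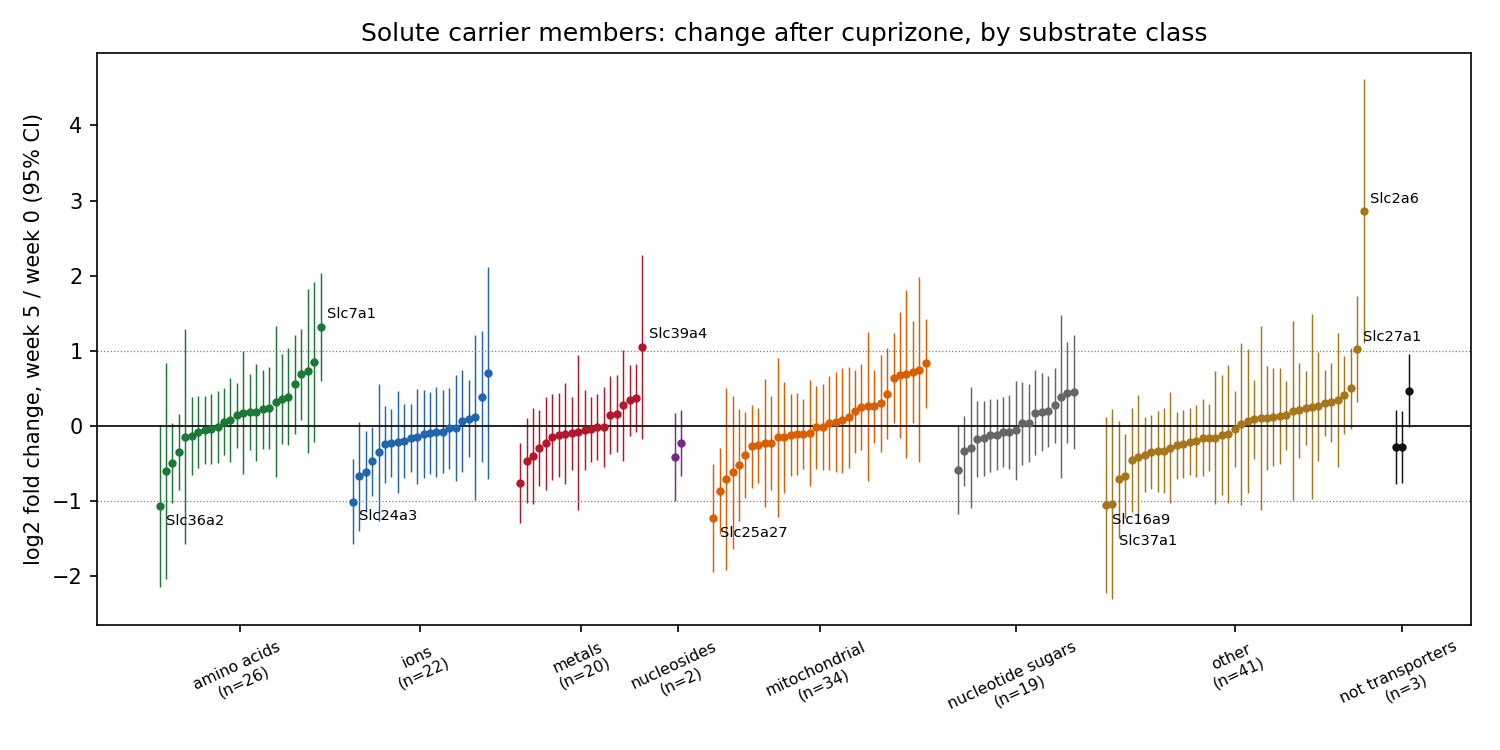
Log2 fold change of each of the 167 members, week 5 over week 0 (vertical axis), with its 95% confidence interval from edgeR (bars), ordered within each substrate class along the horizontal axis. Dotted lines mark a 2-fold change, and names are given for the 4 members above and the 5 below them. Most intervals cross 0, and the widest belongs to Slc2a6.

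The class medians lay between -0.32 and 0.16. The 26 carriers of amino acids and peptides had a median log2 fold change of 0.16, with both week 5 libraries above week 0 for 6 and below for 3. This median turned to -0.07 when total counts were the only scaling, a setting that shifted the median of all genes to -0.24. The 22 ion carriers had a median of -0.12, with 0 above and 6 below, and stayed negative under every alternative (-0.33 to -0.11). The 20 carriers of metals had a median of -0.07, with 5 above and 5 below. For the 34 mitochondrial carriers the median was -0.02, with 8 above and 7 below. The 19 members of the nucleotide sugar family had a median of -0.06, with 2 above and 6 below, and the 41 carriers of other substrates one of -0.04, with 8 above and 14 below. Both nucleoside carriers were below, with a median of -0.32. The 3 members that carry the symbol but are not transporters, the scaffold protein Slc9a3r1, the adaptor Slc4a1ap and Slc7a6os, had a median of -0.28. Over all genes, both week 5 libraries lay above both week 0 libraries for 21.1% and below them for 22.2%. The shares above and below were 23.1% and 11.5% for amino acids, 0% and 27.3% for ions, and 25% and 25% for metals. They were 23.5% and 20.6% for mitochondrial carriers, 10.5% and 31.6% for nucleotide sugars, and 19.5% and 34.1% for other substrates. No class held a member that passed.

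Summed levels placed the amino acid carriers first in every library, at 2367 and 2001 CPM at week 0 and 2265 and 2283 at week 5, with overlap between the groups. The mitochondrial carriers summed to 1351 and 1310 CPM at week 0 and to 1731 and 1437 at week 5, so that both week 5 libraries were higher. Scaled by total counts alone these sums were 1465, 1403, 1449 and 1458 CPM and overlapped. Ion carriers summed to 1300 and 1185 CPM against 1035 and 1086, and both week 5 libraries were lower, as they were with total counts alone (1409 and 1269 against 866 and 1103 CPM). These sums rest on the few most abundant members of each class. In this assay a molecule is counted once at its 3′ end, so levels are not scaled by transcript length.

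**Figure D2:**
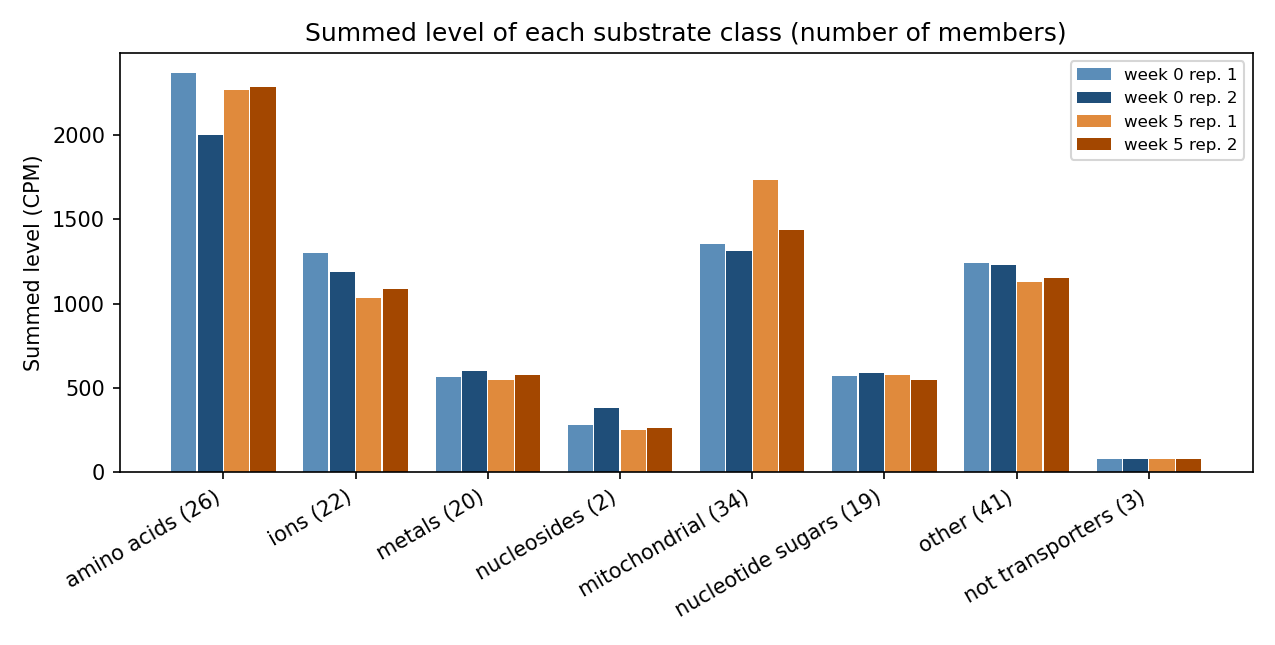
Summed level (CPM, vertical axis) of the members of each substrate class in each of the 4 libraries (bars), with the number of members in parentheses. The mitochondrial class is higher in both week 5 libraries (1731 and 1437 against 1351 and 1310 CPM), though not with total counts as the only scaling, and the ion class lower, while the amino acid class overlaps.

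Among the amino acid carriers the lowest p belonged to Slc7a1, the plasma membrane carrier of arginine and other cationic amino acids (chr5:148327410-148399904, minus strand, GRCm38). Its level was 7.85 and 5.57 CPM at week 0 but 15.1 and 17.8 CPM at week 5. Both week 5 libraries were well above the higher week 0 library, but the level was low throughout. The log2 fold change was 1.32 (95% confidence interval 0.60 to 2.04), with an adjusted p of 0.0737, which missed the threshold. It passed in 4 alternatives, among them the fit of every barcode (adjusted p = 0.04996, log2 fold change 1.39) and the fit without week 0 replicate 1 (0.0494, 1.54). UMIs of Slc7a1 were found in 2.16% and 2.64% of cells at week 0 and in 6.38% and 5.25% at week 5. In cells thinned to 1000 UMIs these shares were 1.28%, 0.477%, 1.12% and 1.73%, which overlapped.

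The heavy chain Slc3a2 stood at 206 and 234 CPM at week 0 against 261 and 254 CPM at week 5, without overlap, but with a log2 fold change of only 0.22 (-0.30 to 0.74). Of its light chains, Slc7a8, which exchanges neutral amino acids, was the most abundant, at 303 and 252 CPM against 201 and 193 CPM. Both week 5 libraries were lower (log2 fold change -0.49, -1.02 to 0.04, adjusted p = 0.422). Slc7a7, the light chain for cationic amino acids, was at 71.8 and 85.6 against 82.1 and 66.8 CPM and overlapped. Slc7a5, the exchanger of large neutral amino acids, was at 18 and 14.7 against 18 and 23.9 CPM.

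Slc1a3, the glutamate transporter also typical of astrocytes, was among the most abundant members, at 226 and 190 CPM at week 0 against 189 and 249 CPM at week 5. The groups overlapped, and its log2 fold change of 0.08 had an interval of -0.48 to 0.63, within 2-fold on both sides. Slc1a2, the main glutamate transporter of astrocytes, was at 32.2, 6.81, 7.25 and 17.8 CPM in the order week 0 replicates 1 and 2, week 5 replicates 1 and 2. The 6 astrocyte markers summed to 34.5, 3.98, 19.6 and 40.2 CPM in the same order, and their part in the Slc1a2 values was not tested.

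Of the carriers of the lysosome, Slc15a3, which exports histidine and small peptides from the lysosome, reached 295 and 204 CPM at week 0 against 378 and 275 CPM at week 5. The groups overlapped, and the log2 fold change of 0.39 (-0.25 to 1.04) did not pass. The gene overlaps Tmem132a on the opposite strand, and the sources used here do not give how strand was counted. Its relative Slc15a4 was at 77.3 and 67.1 against 75.5 and 74.4 CPM. Slc38a9, the arginine sensor of the lysosomal membrane, was at 145 and 128 against 107 and 142 CPM, and Slc36a1, a proton-coupled exporter of small amino acids, at 135 and 100 against 87.9 and 96.7 CPM. Slc36a1 was lower in both week 5 libraries, with a log2 fold change of -0.34 (-0.85 to 0.16). Slc36a2, a relative of the same family, had the lowest estimate of the class, at 5.49 and 6.81 against 2.42 and 3.63 CPM (-1.07, -2.15 to 0.01).

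Slc38a2, a sodium-coupled importer of neutral amino acids, was at 241 and 151 against 190 and 252 CPM, and Slc6a6, the taurine transporter, at 181 and 163 against 207 and 183 CPM. The groups of Slc38a2 overlapped, while those of Slc6a6 were narrowly apart (0.18, -0.32 to 0.69). Slc16a10, which carries aromatic amino acids, had an unadjusted p of 0.0302. It was at 17.7 and 18.4 CPM at week 0 against 35.1 and 22.4 CPM at week 5, and week 5 replicate 1 was the one that stood out (log2 fold change 0.69, adjusted p = 0.282).

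Of the ion carriers, Slc24a3, a potassium-dependent sodium and calcium exchanger (chr2:145167754-145642166, plus strand), had the lowest p. It was at 21.2 and 26.6 CPM at week 0 against 11.9 and 12.1 CPM at week 5, so that the highest week 5 library was below the lowest week 0 library. The log2 fold change was -1.01 (-1.58 to -0.44, adjusted p = 0.0828), and it stayed between -1.28 and -0.82 in every alternative and passed in 3 of 13. Slc8a1, the plasma membrane sodium and calcium exchanger, was far more abundant, at 241 and 189 CPM against 128 and 154 CPM. Both week 5 libraries were lower (-0.61, -1.15 to -0.07, adjusted p = 0.289). Slc4a7, a sodium bicarbonate cotransporter, was at 134 and 136 against 97.6 and 97.0 CPM, and its replicates differed little within each group (-0.47, adjusted p = 0.339).

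Slc12a2, which brings sodium, potassium and chloride into the cell, stood at 179 CPM in both week 0 libraries and at 202 and 149 CPM at week 5 (-0.03, -0.57 to 0.51). Slc9a9, a sodium and proton exchanger of endosomes, was at 110 and 99.3 against 93.1 and 85.6 CPM, lower in both week 5 libraries (-0.22, -0.68 to 0.23). The phosphate importer Slc20a1 was at 14.9 and 10.1 against 13.2 and 12.4 CPM.

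Among the metal carriers Slc39a10, a zinc importer of the plasma membrane, had the lowest p. Its level was 47.9 and 70.2 CPM at week 0 against 37.2 and 33.0 CPM at week 5, without overlap (-0.76, -1.29 to -0.23, adjusted p = 0.164). Slc39a1, another zinc importer, lay the other way at 41.2 and 47.7 against 55.0 and 60.8 CPM (0.37, -0.08 to 0.83). The zinc exporter Slc30a1, whose gene is induced by zinc, was at 20.4 and 20.8 against 24.3 and 21.8 CPM (0.16, -0.34 to 0.67). Slc31a2, a relative of the copper importer, was at 36.9 and 45.6 against 50.2 and 55.3 CPM (0.34, -0.13 to 0.82). The heme carrier Slc48a1 was at 18.4, 19.2, 19.1 and 18.1 CPM, nearly the same in all libraries (-0.01, -0.54 to 0.52).

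Of the 34 mitochondrial carriers 5 had an unadjusted p under 0.05 (14.7%), a share near the 13.7% of all genes. Slc25a3, which imports phosphate for ATP synthesis (chr10:91116574-91124059, minus strand), was at 204 and 196 CPM at week 0 against 416 and 297 CPM at week 5. Both week 5 libraries were higher, and replicate 1 more so (log2 fold change 0.84, 0.25 to 1.43, adjusted p = 0.166). DESeq2 gave an adjusted p of 0.0395 for it. Slc25a4, an exchanger of ADP and ATP, followed the same order at 111 and 105 against 209 and 128 CPM (0.64, 0.04 to 1.24, adjusted p = 0.319). Slc25a5, the second such exchanger, was at 250 and 242 against 394 and 268 CPM (0.43, -0.18 to 1.03). Genes of such exchangers have processed pseudogenes, and the sources used here do not give how reads shared with these were counted. Slc25a39, needed for mitochondrial glutathione, was at 27.5 and 40.4 against 71.9 and 40.5 CPM (0.72, adjusted p = 0.328). For these 4, week 5 replicate 1 was the highest library. Without week 5 replicate 2, Slc25a3, Slc25a4 and Slc25a39 passed (adjusted p 0.00134, 0.00139 and 0.00127, log2 fold changes 1.10, 0.99 and 1.10), in a fit that called 1373 genes in place of 285.

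Other mitochondrial carriers lay in the opposite direction. Slc25a37, mitoferrin, which imports iron, was at 144 and 92.7 CPM at week 0 against 57.8 and 71.6 CPM at week 5, without overlap (-0.87, -1.44 to -0.29, adjusted p = 0.139). It passed in 4 of 13 alternatives. Slc25a27, an uncoupling protein also known as UCP4, was at 18.8 and 15.3 against 5.95 and 8.77 CPM (-1.22, -1.94 to -0.50, adjusted p = 0.0945), and passed in 4 of 12. The other iron carrier, Slc25a28, was at 34.1 and 47.3 against 32.9 and 43.2 CPM and overlapped.

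Both nucleoside carriers, Slc29a3 of the lysosome and Slc29a1 of the plasma membrane, were lower in both week 5 libraries. Slc29a3 was at 216 and 316 CPM against 193 and 208 CPM (-0.41, -0.997 to 0.18, adjusted p = 0.588), and week 0 replicate 2 was the one that stood out. Slc29a1 was at 63.6 and 69.1 against 57.2 and 56.2 CPM (-0.23, -0.66 to 0.21). The concentrative nucleoside carriers of the Slc28 family were not among the members. In the nucleotide sugar family, which supplies the Golgi, no member had an unadjusted p under 0.05. The most abundant were Slc35c2 at 80.8 and 85.4 against 58.5 and 74.4 CPM (-0.33, -0.80 to 0.14) and Slc35b2, the carrier of the sulfate donor, at 63.6 and 81.5 against 68.9 and 65.6 CPM.

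Of the carriers of other substrates, Slc2a6, a hexose transporter of the lysosomal membrane in macrophages (chr2:27021363-27027998, minus strand), had the highest estimate of all members. It was at 1.57 and 1.03 CPM at week 0 against 14.7 and 3.02 CPM at week 5, from 4, 5, 79 and 10 UMIs. The difference rests on week 5 replicate 1, which held most of the UMIs. The log2 fold change was 2.86 with a wide interval of 1.10 to 4.62 (adjusted p = 0.107), and ranged from 1.25 to 3.58 over the alternatives. It passed in 3 of 11, among them the fit without the 3 named clusters (adjusted p = 0.0360). UMIs of Slc2a6 were in 0.432% and 0.550% of cells at week 0 and 6.38% and 1.09% at week 5. Of the 79 UMIs in week 5 replicate 1, 52 were in 1 cluster of cells, described below.

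Slc27a1, which takes up long-chain fatty acids (chr8:71568882-71587302, plus strand), was at 6.67 and 7.64 CPM at week 0 against 16.5 and 12.7 CPM at week 5, without overlap (1.03, 0.32 to 1.73, adjusted p = 0.155). Slc16a6, a monocarboxylate carrier, was abundant at 213 and 235 CPM at week 0 and lower in both week 5 libraries, at 118 and 165 CPM (-0.66, -1.22 to -0.11, adjusted p = 0.256). Its gene overlaps Amz2 and Arsg on the opposite strand. The lactate exporter Slc16a3 was at 29.0 and 32 against 46.8 and 34.5 CPM (0.42, -0.10 to 0.94), and Slc16a1, which carries lactate both ways, at 12.2 and 11.6 against 12.6 and 14.8 CPM. All 6 monocarboxylate carriers had groups that did not overlap, 2 above and 4 below, where 43.3% of all genes did not overlap, but apart from Slc16a6 each had an unadjusted p over 0.05. The proton-coupled folate and heme carrier Slc46a1 was at 41.2 and 47.9 against 47.0 and 52.0 CPM, and its lysosomal relative Slc46a3 at 54.9 and 45 against 65.2 and 51.7 CPM. Slc37a2, a sugar phosphate carrier abundant in macrophages, was at 96.1 and 88.3 against 97.0 and 67.4 CPM.

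**Figure D3:**
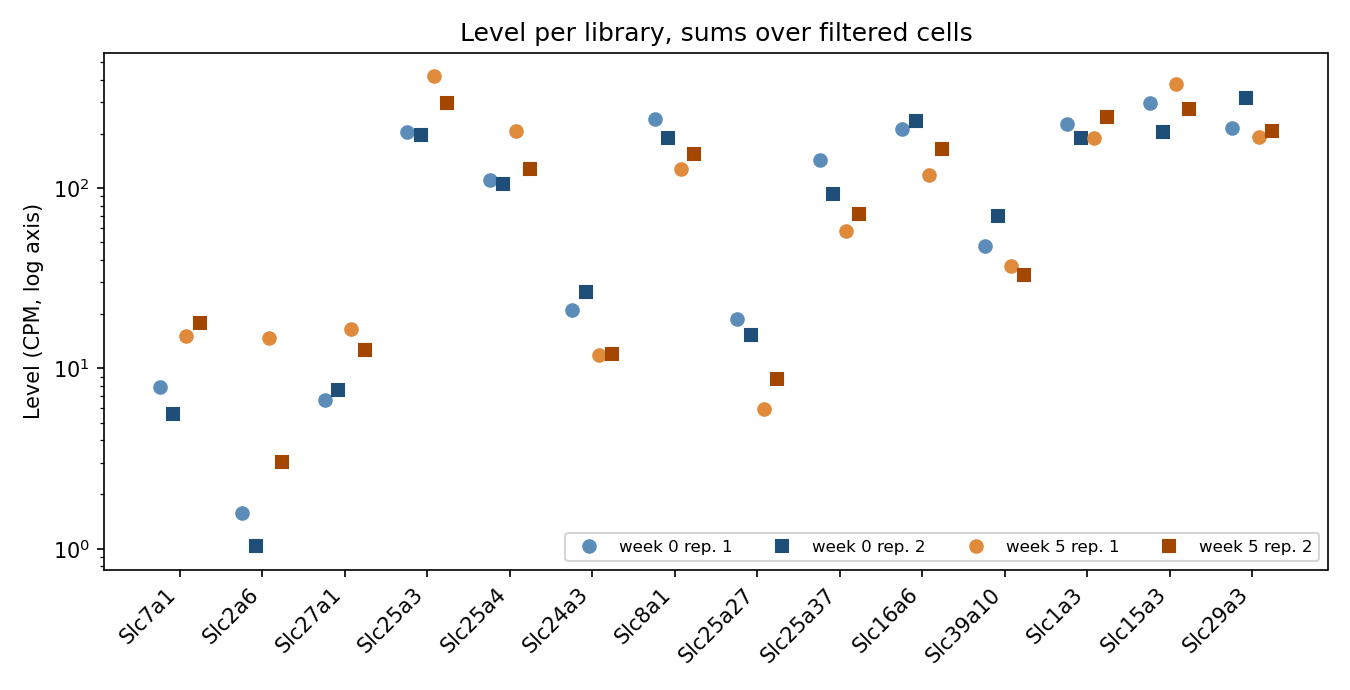
Level (CPM, vertical log axis) of 14 members in each of the 4 libraries, with week 0 in blue and week 5 in orange and the replicate by symbol. The groups of Slc7a1, Slc24a3, Slc25a27 and Slc39a10 do not overlap, those of Slc2a6 and Slc25a4 are spread by week 5 replicate 1 (14.7 and 209 CPM), and those of Slc1a3 and Slc15a3 overlap.

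Upstream sequence is shown for Slc7a1, Slc2a6 and Slc27a1, the 3 members with an unadjusted p under 0.05 and an estimate of at least 2-fold higher at week 5. Each line gives the 250 bases before the start of the gene in RefSeq (GRCm38.p6), read 5′ to 3′ on the strand of the gene, from chr5:148399905-148400154 (minus), chr2:27027999-27028248 (minus) and chr8:71568621-71568870 (plus). Capitals mark matches to the searched letters.
Slc7a1: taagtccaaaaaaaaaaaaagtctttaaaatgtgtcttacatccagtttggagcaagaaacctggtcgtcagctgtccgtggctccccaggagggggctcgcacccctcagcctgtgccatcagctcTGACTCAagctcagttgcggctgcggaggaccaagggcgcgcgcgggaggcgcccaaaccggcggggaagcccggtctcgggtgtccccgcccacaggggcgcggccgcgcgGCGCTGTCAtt
Slc2a6: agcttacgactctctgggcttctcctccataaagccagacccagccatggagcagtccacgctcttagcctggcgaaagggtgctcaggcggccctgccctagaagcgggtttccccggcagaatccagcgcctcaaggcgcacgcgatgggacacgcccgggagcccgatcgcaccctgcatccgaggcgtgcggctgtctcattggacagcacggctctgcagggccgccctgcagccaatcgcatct
Slc27a1: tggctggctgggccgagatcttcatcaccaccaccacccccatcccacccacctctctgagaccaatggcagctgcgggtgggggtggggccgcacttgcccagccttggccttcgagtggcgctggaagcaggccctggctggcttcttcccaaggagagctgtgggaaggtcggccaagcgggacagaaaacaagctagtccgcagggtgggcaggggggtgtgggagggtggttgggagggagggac
The letters searched on both strands were GAAANNGAA (interferon response), CACGTG (the E-box, core of the element of lysosomal genes), TGANTCA (AP-1), TGACNNNGC (antioxidant response) and TGATGNAA (amino acid response). AP-1 and antioxidant letters share their first bases and can overlap. Slc7a1 held a match to the AP-1 and to the antioxidant letters, and Slc2a6 and Slc27a1 held none of the 5. A match is a description of the letters, not a site.

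Upstream sequence was found for 129 of the 167 members. The E-box letters were in 18 of these (14.0%), against 8.86% of the promoters of 8755 genes tested and 6.05% of all 27025 in the table. Among the 18 were Slc36a1 and Slc38a7, carriers of the lysosome, and Slc16a1 and Slc20a1 of the plasma membrane. Antioxidant letters were in 24 (18.6%, against 12.2% of tested genes), AP-1 letters in 10 (7.75%, against 3.96%), interferon response letters in 7 (5.43%, against 6.57%) and amino acid response letters in 4 (3.101%, against 1.90%).

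Genes that work beside the carriers were read from 4 fixed lists in the same fit. Of 21 tested transport partners, 2 rose and 0 fell, where 2.53% of all genes passed. At an unadjusted p under 0.05 the share was 9.52%, against 13.7% of all genes. Mfsd12, a cysteine importer of lysosomes, rose from 23.5 and 22.1 to 66.7 and 47.5 CPM (log2 fold change 1.33, adjusted p = 0.0197). The median log2 fold change of the 21 was 0.30, beside -0.01 over all genes. Mfsd12 missed the threshold in cells thinned to 1 depth (adjusted p = 0.0769) and without week 0 replicate 2 (0.120). Slco2b1, an organic anion carrier with another symbol that is typical of microglia, was at 714 and 567 CPM against 451 and 464 CPM and did not pass (adjusted p = 0.531). Of the other partners, Bsg, which holds lactate carriers at the membrane, was at 324 and 450 against 537 and 417 CPM.

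Of 17 tested genes of the amino acid response, 2 rose and 0 fell, both in all 13 alternatives, where 2.53% of all genes passed. These were Atf3, a stress-induced transcription factor, from 14.1 and 13.4 to 88.3 and 53.5 CPM (2.38, adjusted p = 0.00342), and Ddit4, an inhibitor of mTORC1 signalling, from 16.5 and 19.4 to 56.9 and 124 CPM (2.30, adjusted p = 0.00959). Both respond to many other stresses. Atf3 was among the 10 leading genes of a small cell cluster led by Ccl4, Ccl3 and Egr1 (4 and 3 cells at week 0, 37 and 15 at week 5), and Ddit4 among those of the Cxcl10-led cluster described below. For 12 of the 17 both week 5 libraries lay above week 0 (70.6%, against 21.1% of all genes), and the median log2 fold change was 0.55. Atf4, the factor that drives the response, was at 83.6 and 94.7 against 86.8 and 96.7 CPM, and Slc7a11, Slc7a5 and Slc3a2, carriers that it is known to induce, are given above. Asparagine synthetase, Asns, was at 0 and 0.206 against 3.16 and 3.33 CPM, from very few UMIs at week 0 (adjusted p = 0.0646). Of 23 tested genes of lysosomal amino acid sensing, 0 passed, where 2.53% of all genes did. At an unadjusted p under 0.05 there were 2 (8.70%, against 13.7% of all genes), among them the GTPase Rragd. Rragd was at 1.18 and 1.24 against 12.1 and 3.63 CPM (adjusted p = 0.0851). DESeq2 and limma-voom also called 0 of the 23, and the median log2 fold change was 0.10.

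Of 4 genes of the zinc and metal response, 1 rose, where 2.53% of all genes passed. This was the metallothionein Mt2, from 1.18 and 1.44 to 11.2 and 7.86 CPM (2.81, adjusted p = 0.0195). It missed the threshold in 4 alternatives, with adjusted p values of 0.0575 (common limit on genes per cell), 0.0580 (limma-voom), 0.0700 (without week 0 replicate 2) and 0.203 (without week 5 replicate 1). Without the 3 named clusters it passed (adjusted p = 0.0115). The median of the 4 was 1.32. Mt1 was at 120 and 71.8 against 383 and 182 CPM (1.57, adjusted p = 0.0737), beside the zinc carriers above, of which none passed.

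The cells were grouped into 11 clusters, of which 3 were named from markers and 8 were not. The clusters take different parts of each library. Cluster 3, led by Cxcl10, Cxcl9 and Ifit1, held 28 and 23 cells at week 0 and 363 and 250 at week 5. Cluster 6, led by Apoc1, Spp1, Fabp5 and Cst7, held 1 and 0 cells at week 0 and 217 and 43 at week 5. Cluster 1, of shallow cells with a median of 1280 UMIs, held 522 and 103 against 165 and 270 cells. Clusters 4 and 7 were about as shallow, with medians of 1101 and 1446 UMIs. Cluster 6 was the deepest, with a median of 12539 UMIs. The clustering used the genes of these same cells, so the levels in clusters, given as CPM of the UMIs of those cells, are a description without a test.

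Within the week 5 libraries most abundant carriers were lower in cluster 6 than in cluster 3. Of 35 members with a mean of at least 60 CPM, 29 were lower in cluster 6 in both replicates (82.9%), 12 of them by more than 2-fold (34.3%). Of the 2975 genes tested at that level, 68.9% were lower in both replicates and 19.97% by more than 2-fold, so that most of all genes lay the same way on this scale. Slc16a6 was at 43.7 and 42.3 CPM in cluster 6 and at 134 and 157 CPM in cluster 3, in replicates 1 and 2. Slc8a1 was at 54.5 and 26.9 against 126 and 123 CPM, Slc1a3 at 86.8 and 92.3 against 239 and 270 CPM, and Slc7a8 at 85.4 and 84.6 against 220 and 199 CPM. The lysosomal Slc29a3 was at 95.5 and 84.6 against 229 and 248 CPM. Mitoferrin, Slc25a37, was at 19.4 and 11.5 against 61.2 and 58.1 CPM, from 56 and 3 UMIs in cluster 6. Of the 35, the members higher in cluster 6 in both replicates were 4: Slc25a3 at 397 and 500 against 293 and 311 CPM, Slc25a5 at 353 and 435 against 314 and 287 CPM, Slc25a4 at 181 and 204 against 167 and 142 CPM, and Slc15a3 at 310 and 292 against 241 and 219 CPM. Slc2a6 was at 18.1 and 11.5 CPM in cluster 6 and 5.03 and 3.46 CPM in cluster 3, the former from 52 and 3 UMIs, and Slc25a39, also below that level, at 77.8 and 65.4 against 43.2 and 45.7 CPM. Slc15a3 was highest in cluster 7, led by Lilrb4a, Adam33 and Fn1, at 768 and 493 CPM.

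**Figure D4:**
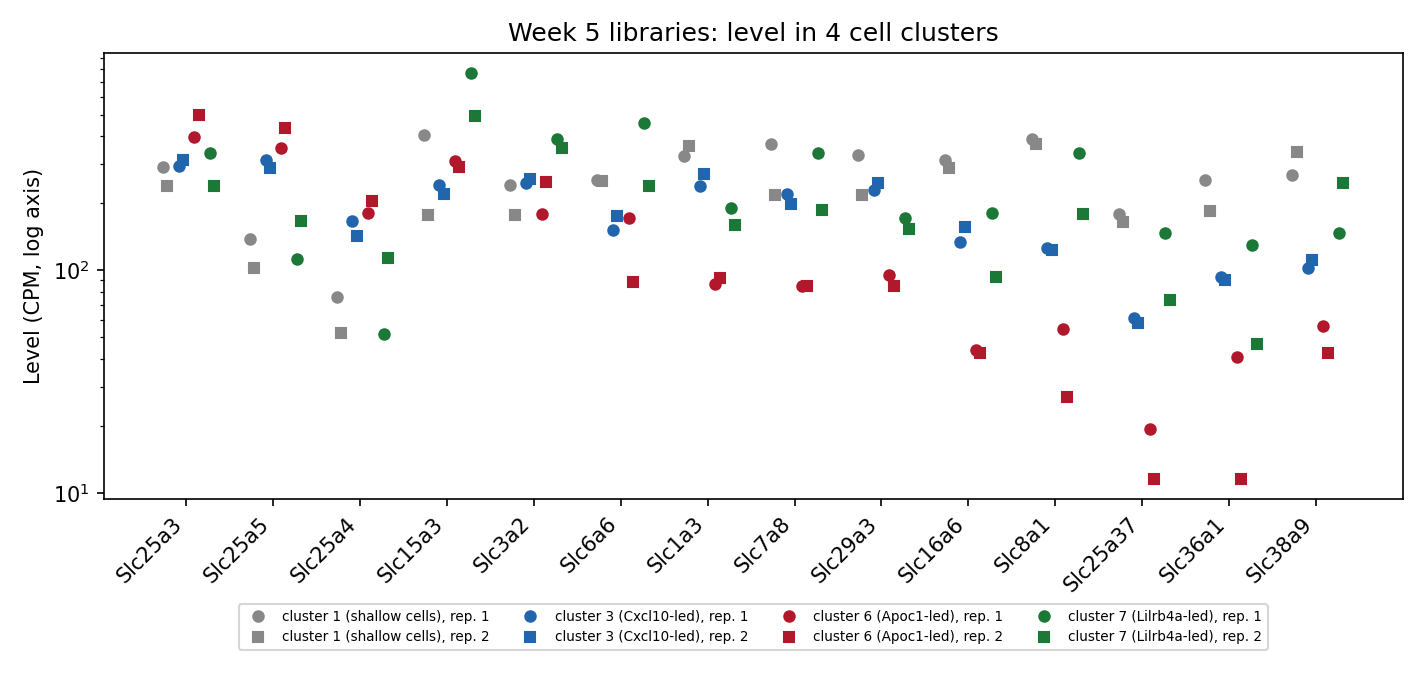
Level (CPM of the UMIs of the cells in each cluster, vertical log axis) of 14 members in 4 clusters of the week 5 libraries, with the replicate by symbol. Cluster 6 (red) is highest for Slc25a3, Slc25a5 and Slc25a4 and lowest of the 4 for Slc1a3, Slc7a8, Slc29a3, Slc16a6, Slc8a1 and Slc25a37.

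Clusters 1, 3 and 4 had at least 20 cells in every library, so week 0 and week 5 can be set side by side within them. Slc25a3 was at 184 and 165 CPM at week 0 against 291 and 240 CPM at week 5 in cluster 1, and at 256 and 232 against 293 and 311 CPM in cluster 3. It was thus higher in both week 5 libraries in each, with only 20 UMIs in week 0 replicate 2 in cluster 1 and 29 in cluster 3. In the smaller cluster 4 it overlapped, at 241 and 339 against 260 and 226 CPM, from 9 to 47 UMIs a library. Slc7a1 was at 11.6 and 8.26 against 35.8 and 16.5 CPM in cluster 1, and at 5.96 and 0 against 10.1 and 18 CPM in cluster 3, from 0 to 26 UMIs a library. Slc24a3 was at 36 and 33.0 against 8.94 and 13.8 CPM in cluster 1, also from few UMIs (28, 4, 2 and 5), and at 11.9 and 24 against 18 and 10.4 CPM in cluster 3, where the groups overlapped. Slc8a1 was at 359 and 661 against 389 and 370 CPM in cluster 1 and at 167 and 120 against 126 and 123 CPM in cluster 3, overlapping in both. In cluster 4 Slc8a1 was lower in both week 5 libraries, at 554 and 419 against 405 and 334 CPM, from 14 to 108 UMIs a library. For Slc16a6 the groups overlapped in cluster 1, at 270 and 322 against 313 and 287 CPM. They did not overlap in cluster 3, at 167 and 168 against 134 and 157 CPM, but the week 0 levels there came from only 28 and 21 UMIs. In cluster 4 they were narrowly apart, at 385 and 339 against 318 and 334 CPM, from 75 and 17 against 11 and 34 UMIs. Slc25a37 was at 247 and 182 against 179 and 165 CPM in cluster 1, narrowly apart, with 22 UMIs in week 0 replicate 2. In cluster 3 it was at 41.7 and 64.0 against 61.2 and 58.1 CPM and overlapped, with 7 and 8 UMIs at week 0. In cluster 4 Slc25a37 was at 261 and 339 against 260 and 216 CPM, both week 5 libraries being lower, by a narrow margin in replicate 1. Slc24a3 and Slc7a1 had at most 5 UMIs a library in cluster 4. How far the mix of clusters accounts for the differences over all cells was not tested.

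The border-associated macrophage-like cluster, led by Mrc1, F13a1 and Pf4, held 90 cells (20 and 4 at week 0, 28 and 38 at week 5) with 523975 UMIs. Its solute carriers are set beside those of the 8 clusters without a name. Slc1a3 had 4 UMIs there, all in week 5 replicate 1 (20.0 CPM), against 165 to 270 CPM in the other cells of the 4 libraries. At week 0 it had 0 UMIs, which allows up to 22 CPM by counting error alone. Slc15a3 was at 105 against 292 CPM and Slc29a3 at 84.0 against 237 CPM, and for both the macrophage-like cells were lower than the other cells in every library. Slc12a9, a chloride cotransporter relative, was at 24.8 against 122 CPM. In the other direction, Slc15a2, a peptide importer of the plasma membrane, was at 43.9 against 6.80 CPM, from 23 UMIs in the macrophage-like cells (6, 0, 15 and 2 by library), and the scaffold Slc9a3r1 at 53.4 against 25.3 CPM. Slc9a3r1 was the only member whose level in the macrophage-like cells of every library exceeded that of the other cells in every library. By the same rule 40 of the 167 members were lower in the macrophage-like cells. The share of all genes lower by this rule was not computed, so the count shows nothing particular to the carriers. No member could count as higher without UMIs in the 4 macrophage-like cells of week 0 replicate 2. In these cells 7 members had 0 UMIs and 40 had at least 20. Over all cells Slc9a3r1 has no overlap between weeks either, at 22.4 and 22.5 against 30.1 and 32 CPM (0.47, -0.02 to 0.95). Slc6a6 was alike in both, at 187 and 180 CPM.

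**Figure D5:**
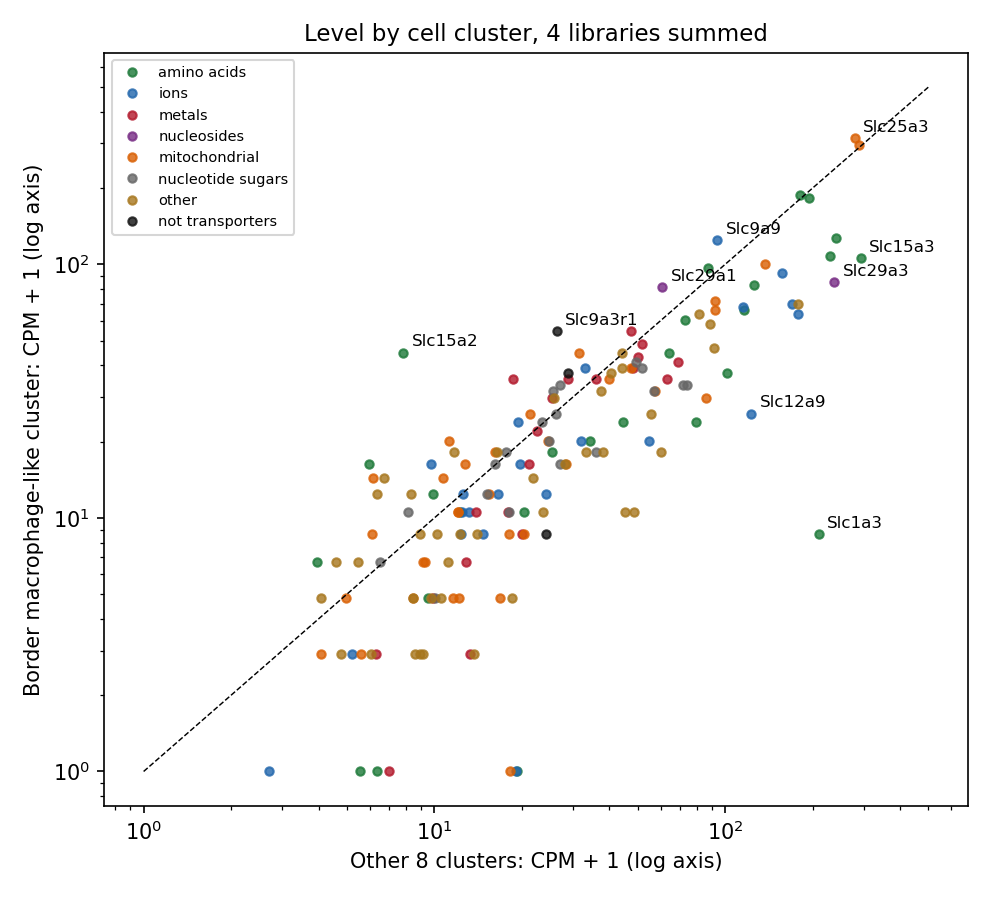
Level of each member in the border-associated macrophage-like cluster (vertical log axis, CPM + 1) against the 8 clusters without a name (horizontal log axis, CPM + 1), 4 libraries summed, coloured by substrate class. The dashed line marks equal levels. Slc1a3 lies far below it (7.63 against 209 CPM) and Slc15a2 above it (43.9 against 6.80 CPM).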

How the data were processed

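The authors deposited UMI counts per gene and barcode, whole numbers that were not normalized, as the values show. The submitters' processing notes name STAR, Cell Ranger 3.0.0, Seurat 4 and the build mm10. Barcodes with fewer than 500 genes or above 10% mitochondrial UMIs were removed (272 of 4000). Scrublet (scanpy 1.11.5) marked 24 doublets, 0.644% of 3728. A gene that a table does not list was taken as 0. The tables' highest numbers of genes per cell differed (2999, 6615, 3999 and 2996).

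Counts were summed per library over all cells and compared with edgeR 4.0.16 (R 4.3.3; quasi-likelihood test, TMM, its filter on low counts, Benjamini-Hochberg adjustment over 11250 genes). DESeq2 1.42.0, limma-voom (limma 3.58.1) and 11 other alternatives were run. The script was tested on simulated data. Confidence intervals are the estimate and its standard error with the test's degrees of freedom.

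Cells were clustered on 30 principal components of 2000 variable genes (15 neighbours, Leiden resolution 1). Clusters were named from fixed markers. Cells were thinned to 1000 UMIs for shares.

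The members and lists were chosen with earlier results of these data known. Single members were named by class (the 3 most abundant, and the largest changes) and from a list known in microglia or macrophages. Slc16a10, Slc4a7, Slc25a39 and some others were added for their p or their cluster level after these were seen. Positions are from GENCODE M21 (166 of 167 members). The upper limit given for a gene without UMIs in a cluster covers counting error only. The confidence intervals rest on the test, which measures the spread between these libraries. Values of 2 genes are not reported here.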

Additional observations from a re-analysis of the deposited data

How the results depend on the processing

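The 0 members called higher and the 0 called lower were compared over 13 alternatives. With total counts as the only scaling 4 members passed as lower (Slc24a3, Slc25a27, Slc25a37 and Slc39a10), where 382 genes changed. Of all calls under that scaling 76.4% were upward, against 91.9% with TMM. DESeq2 called 1 higher, where 392 of the 12870 genes it tested changed. With no filter on low counts 3 passed as higher and 4 as lower, and 925 genes changed in place of 285. Leaving out 1 library gave 0 to 8 higher, 0 to 4 lower and 151 to 1373 genes, the most without week 5 replicate 2. The fit of every barcode called 1 higher, with 325 genes changed. With at most 2996 genes per cell 1 was lower, with 499 genes changed. In cells thinned to 1000 UMIs, where only 125 members could be tested, 173 genes changed. The fit without the 3 named clusters was added after seeing the data and kept cluster 2. In it 402 genes changed, and 1 member was higher (Slc2a6, adjusted p = 0.0360) and 1 lower (Slc25a27, adjusted p = 0.0499). The cause of these differences was not tested. In all, 13 members passed in at least 1 alternative, and 72 of 167 kept their sign in every one. The share of all genes that passed in at least 1 alternative was not computed. The fit with a replicate block gave 0 members and 369 genes. Between libraries of the same replicate number, the correlation of the deviations from the group mean was -0.04. With 2 libraries a group both pairs give this same value, so it cannot decide whether the numbers pair the libraries. The planned fit of microglia-like cells was not run, since several clusters had more leading markers of another class than of microglia. Members under about 20 CPM had wide intervals at this depth.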
